A study of Mus musculus with 12 samples.

Results

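B2 elements are short interspersed elements (SINEs) of rodents. They arose from a transfer RNA gene, carry an internal promoter for RNA polymerase III and encode no protein, so their spread in the genome relied on enzymes of LINE elements. Free B2 RNA is known for binding RNA polymerase II during heat shock in mouse cells. The many copies that lie in introns and untranslated regions are also copied as parts of longer RNAs. In the repeat annotation of the deposited tables, the family was defined as the rows of class SINE and family B2. This rule gave 5 of 18538 repeat names and 5 of the 38 SINE names. They were B2_Mm1a, B2_Mm1t and B2_Mm2, the younger mouse subfamilies, and B3 and B3A, their older relatives. All 5 passed the filter on low counts.

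The data were total RNA libraries of 2-cell embryos of C57BL/6 mice, taken 1.5 days post fertilization. The KO group (m-/p-, 6 libraries) came from Kdm4a knockout oocytes, and the WT group (m+/p-, 6 libraries) from wild-type oocytes. Oocytes of both groups were fertilized with Kdm4a knockout sperm, so the WT group also lacked a working paternal allele. Kdm4a encodes a demethylase of lysines in histone H3. The genotypes thus differed in the maternal allele and in any product stored in the oocyte, and other differences between the egg donors cannot be told apart from these. The labels speak of individual tubes and do not state how many embryos a library holds, so the p-values measure the spread between these libraries.

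No gene row was present to check the genotype. The repeats that mark the 2-cell stage were abundant: the endogenous retrovirus part MERVL-int took 2.48% to 4.27% of all counts in KO libraries and 4.42% to 7.004% in WT libraries, and its terminal repeat MT2_Mm took 0.566% to 0.893% in KO libraries and 0.923% to 1.46% in WT libraries. Totals ran from 7952526 to 16493286 counts in KO libraries and from 10946392 to 18902360 in WT libraries. KO replicate 5 was the shallowest KO library and WT replicate 2 the shallowest WT library, and the results below are also given without this pair where it changes them.

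The B2 rows were among the most counted repeats of the 2-cell embryo. By mean normalised CPM (CPM, the count scaled to a common library size, here with edgeR's TMM factors, which refer each library to its typical repeat), they ranked 10 (B3), 13 (B2_Mm2), 20 (B2_Mm1a), 21 (B2_Mm1t) and 28 (B3A) among 3312 tested repeats. These are ranks of reads and not of levels per length or per genomic copy, which the files do not give. Even the least counted of the 60 library values, that of B3A in KO replicate 5, rested on 62719 reads. The widest 95% Wilson interval of a share in 1 library was ±0.00946 percentage points of all counts and ±0.0533 points of SINE counts. These intervals cover counting error only, and without molecular identifiers several reads can come from 1 molecule.

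As a group of 5, the B2 rows took a larger part of the counts in KO libraries. The family total had a lowest value of 6.13%, a median of 7.53% and a highest value of 8.89% of all counts in KO libraries, against 5.31% at the median and a range of 4.35% to 6.22% in WT libraries. Only KO replicate 5, the lowest KO library, lay below the highest WT library, WT replicate 4. The LTR class, which holds retroviral repeats, made up 44.2% to 51.7% of all counts in KO libraries and 54.1% to 59.6% in WT libraries, without overlap, and a lower LTR share raises the sum of all other shares. Of counts outside LTR, the B2 total made up 11.9% to 15.9% in KO libraries (median 14.7%), against 10.8% to 13.6% in WT libraries (median 11.8%), and the groups overlapped. The whole SINE class made up 16.8% to 23.1% of all counts in KO libraries and 12.4% to 15.0% in WT libraries, without overlap. Of SINE counts, the B2 total made up 36.3% to 44.4% in KO libraries (median 39.1%) and 35.0% to 41.4% in WT libraries (median 37.5%), with wide overlap. These totals are a description without a test. A share does not show how much B2 RNA an embryo held.

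B2_Mm2 was the younger subfamily with the most reads. Its normalised CPM had a lowest value of 14150.5, a median of 17768 and a highest value of 20446 in KO libraries, against 12383, 14496 and 17209 in WT libraries. KO replicates 2, 3 and 6 lay above every WT library, while KO replicate 5 lay below the WT median. The group means were 17510.1 ± 2464 in KO and 14571 ± 1765 in WT (SD, n = 6 each). The log2 fold change of KO over WT was 0.27 (standard error 0.10, 95% interval 0.04 to 0.49, edgeR quasi-likelihood test, adjusted p = 0.258 over 3312 repeats).

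B2_Mm1t had a lowest value of 8712, a median of 11284 and a highest value of 14779 normalised CPM in KO libraries, against 8101, 9259.7 and 11816 in WT libraries. KO replicates 2 and 3 lay above every WT library, and KO replicate 5 was again the lowest of its group. Its log2 fold change was 0.31 (standard error 0.13, 95% interval 0.03 to 0.58, edgeR adjusted p = 0.298). B2_Mm1a, the name closest to it in its values, had a lowest value of 9202, a median of 11700.1 and a highest value of 15825 in KO libraries, against 8546, 9644 and 12223 in WT libraries. Here too KO replicates 2 and 3 lay above every WT library. Its log2 fold change was 0.30 (standard error 0.13, 95% interval 0.01 to 0.58, edgeR adjusted p = 0.344).

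The older relatives differed less between the group means. B3 had a lowest value of 16536, a median of 17105 and a highest value of 19851 normalised CPM in KO libraries, against 15357, 16702 and 19019 in WT libraries. The ranges of the genotypes nearly coincided, and KO replicate 6 stood clear above the other KO libraries. The log2 fold change of B3 was 0.03 (standard error 0.07, 95% interval -0.12 to 0.19, edgeR adjusted p = 0.913), and without KO replicate 6 it was -0.0049. It ran up to 0.0685, without WT replicate 6, and leaving out KO replicate 1 or WT replicate 1, 2 or 5 also moved it by over 1.5 times. B3A had a lowest value of 7299.5, a median of 7898 and a highest value of 8966 in KO libraries, against 6904, 7427 and 7863 in WT libraries. KO replicates 1, 2 and 6 lay above every WT library. The log2 fold change of B3A was 0.09 (standard error 0.07, 95% interval -0.05 to 0.23, edgeR adjusted p = 0.612), and without KO replicate 6 it was 0.0529.

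**Figure D1:**
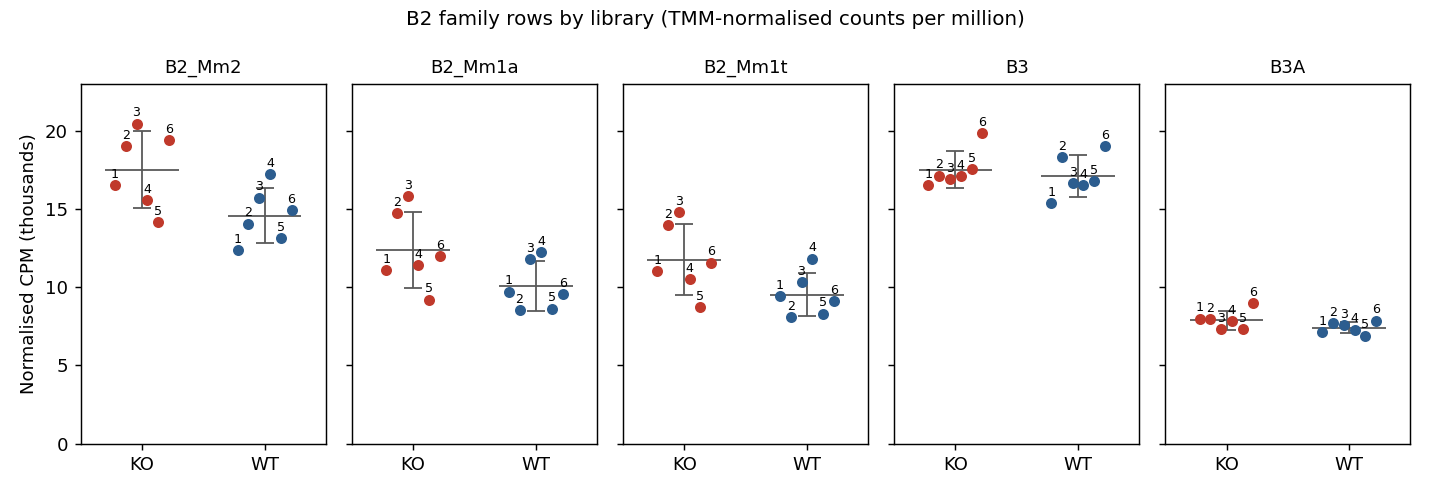
Normalised CPM (y axis, each unit 1000 CPM) of the 5 B2 family rows, with KO libraries left and WT libraries right in each panel. Points are libraries numbered by replicate, and bars show the mean and SD of 6 libraries. In the 3 B2_Mm panels KO replicates 2 and 3 sit above every WT library and KO replicate 5 lies lowest of its group, while the B3 groups cover nearly the same range.

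None of the 5 rows passed edgeR's test over all repeats, which called 0.151% of repeats higher and 1.27% lower in KO (1.42% in either direction). In none of the 5 rows did every KO library lie above every WT library by normalised CPM, as it did for 0.725% of repeats. At an unadjusted p under 0.05, the 3 B2_Mm rows were higher in KO, against 5.5% of all tested repeats. That count was 0 without KO replicate 3, without WT replicate 5 or with TMM factors from rows outside LTR, and 1 without KO replicate 2 or 6 or WT replicate 1, 2 or 6. DESeq2 also called none of the 5, with 3 at an unadjusted p under 0.05, and it called 1.27% of repeats higher. From limma-voom with quality weights none of the 5 passed (0.242% of repeats called higher), and 2 had an unadjusted p under 0.05. All 5 log2 fold changes were above 0, as were those of 28 of the 33 other SINE rows and of 1696 of the 3312 repeats. The median of the 5 was 0.27, the value of B2_Mm2, beside a median of 0.01 over the 3312 repeats. The scaling decided the calls: with total counts in place of TMM, edgeR called all 5 higher, with log2 fold changes of 0.58 (B2_Mm2), 0.61 (B2_Mm1t), 0.60 (B2_Mm1a), 0.35 (B3) and 0.41 (B3A). That scaling moved the median of all repeats to 0.32 and called 10.8% of them higher.

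The share of all counts needs no scaling factor, but it moves when another class moves. B3A was the row whose genotypes did not overlap. Its share ran from 0.777% to 1.11% in KO libraries (median 0.816%) and from 0.591% to 0.713% in WT libraries (median 0.667%). Every KO library lay above every WT library (exact permutation test, two-sided, n = 6 each, p = 0.00216, adjusted p = 0.0348 over 3312 repeats). This p is the smallest that 6 libraries against 6 can give. The same separation held for 17 of the 33 other SINE rows and for 5.8% of tested repeats. B2_Mm2 took 1.52% to 2.40% in KO libraries (median 1.97%) and 1.08% to 1.65% in WT libraries (median 1.32%), and B3 took 1.67% to 2.46% in KO libraries (median 1.86%) and 1.403% to 1.72% in WT libraries (median 1.51%). Each had an exact permutation p of 0.00433 (n = 6, adjusted p = 0.0469), with 5 of 6 KO libraries above every WT library.

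B2_Mm1a and B2_Mm1t had larger mean differences than B3A but wider spreads, and neither passed. B2_Mm1a took 1.38% ± 0.248 of all counts in KO and 0.910% ± 0.174 in WT, and B2_Mm1t took 1.31% ± 0.238 in KO and 0.859% ± 0.164 in WT (SD, n = 6, exact permutation p = 0.00649 and adjusted p = 0.0549 for each). By this share 3 of the 5 B2 rows passed as higher in KO, as did 23 of the 33 other SINE rows, against 8.57% of all tested repeats (0.664% lower, 9.24% in either direction). At an unadjusted p under 0.05 all 5 were higher in KO, as were 31 of the 33 other SINE rows, against 26.3% of repeats. The 3 calls did not hold with fewer WT libraries, although the differences stayed near their values. Leaving out any 1 WT library (replicate 1, 2, 3, 4, 5 or 6) ended all of them, with adjusted p between 0.0567 and 0.104 (exact permutation test). No repeat of the table then passed, and the difference of B3A was 0.205 to 0.230 percentage points, against 0.220 with all libraries, and that of B2_Mm2 0.599 to 0.713, against 0.646. Leaving out KO replicate 1 or 6 ended the calls of B2_Mm2 and B3 (exact permutation adjusted p = 0.0656 for each without KO replicate 1, and 0.0666 and 0.0783 without KO replicate 6), and leaving out KO replicate 3 or 4 ended that of B2_Mm2 (adjusted p = 0.0581 and 0.0559). The call of B3A held without any 1 KO library, and that of B2_Mm1a was gained without KO replicate 5 (adjusted p = 0.0470).

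Taking the LTR class out of the total left smaller ratios of KO to WT. The log2 difference in the share of counts outside LTR was 0.33 for B2_Mm2, 0.35 for B2_Mm1a, 0.36 for B2_Mm1t, 0.10 for B3 and 0.16 for B3A, against 0.57, 0.60, 0.61, 0.35 and 0.40 in the share of all counts. In percentage points the differences of the 3 B2_Mm rows were larger outside LTR, where the total is smaller. Of counts outside LTR, B2_Mm2 made up 2.96% to 4.30% in KO libraries (median 3.85%) and 2.62% to 3.60% in WT libraries (median 2.90%), and all 6 KO libraries lay above the WT median. The means were 3.73% ± 0.498 in KO and 2.97% ± 0.365 in WT (SD, n = 6, exact permutation p = 0.0173, adjusted p = 0.250 over 2675 repeats). B2_Mm1a stood at 2.63% ± 0.438 in KO and 2.06% ± 0.343 in WT, B2_Mm1t at 2.50% ± 0.414 in KO and 1.94% ± 0.316 in WT, and B3A at 1.69% ± 0.200 in KO and 1.51% ± 0.0423 in WT (exact permutation adjusted p = 0.330, 0.318 and 0.360). B3 stood at 3.74% ± 0.364 in KO and 3.48% ± 0.204 in WT (n = 6, exact permutation p = 0.145, adjusted p = 0.546), a difference of 0.260 points that was 0.127 without KO replicate 6. None of the 5 rows and no other repeat outside LTR passed the exact permutation test (0% called). At an unadjusted p under 0.05, 4 of the 5 were higher in KO, as were 14 of the 33 other SINE rows, against 10.1% of repeats outside LTR. Every KO library lay above every WT library in 0 of the 5 and in 2 of the 33 other SINE rows (1.01% of repeats).

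Among SINEs alone, the means of the younger rows were higher in KO and those of the older rows lower, and no row passed the test. B2_Mm2 made up 10.4% ± 1.07 of SINE counts in KO and 9.42% ± 0.898 in WT (SD, n = 6, exact permutation p = 0.108, adjusted p = 0.469 over 38 SINE rows). B2_Mm1a stood at 7.37% ± 1.32 in KO and 6.53% ± 0.980 in WT, and B2_Mm1t at 7.01% ± 1.20 in KO and 6.16% ± 0.889 in WT (exact permutation adjusted p = 0.620 and 0.582). Without KO replicate 3 their differences were 0.445 and 0.496 points, against 0.840 and 0.841 with all libraries. B3 made up 10.5% ± 0.468 in KO and 11.1% ± 0.558 in WT (n = 6, exact permutation p = 0.0758, adjusted p = 0.469), and 5 of 6 KO libraries lay below the WT median. B3A stood at 4.71% ± 0.233 in KO and 4.80% ± 0.100 in WT (exact permutation adjusted p = 0.727), a difference that changed sign when SINE counts outside B2 were the total and was -0.0036 points without KO replicate 3, against -0.0837 with all libraries. No SINE row passed (0% called), and 0 of the 5 B2 rows had an unadjusted exact permutation p under 0.05.

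**Figure D2:**
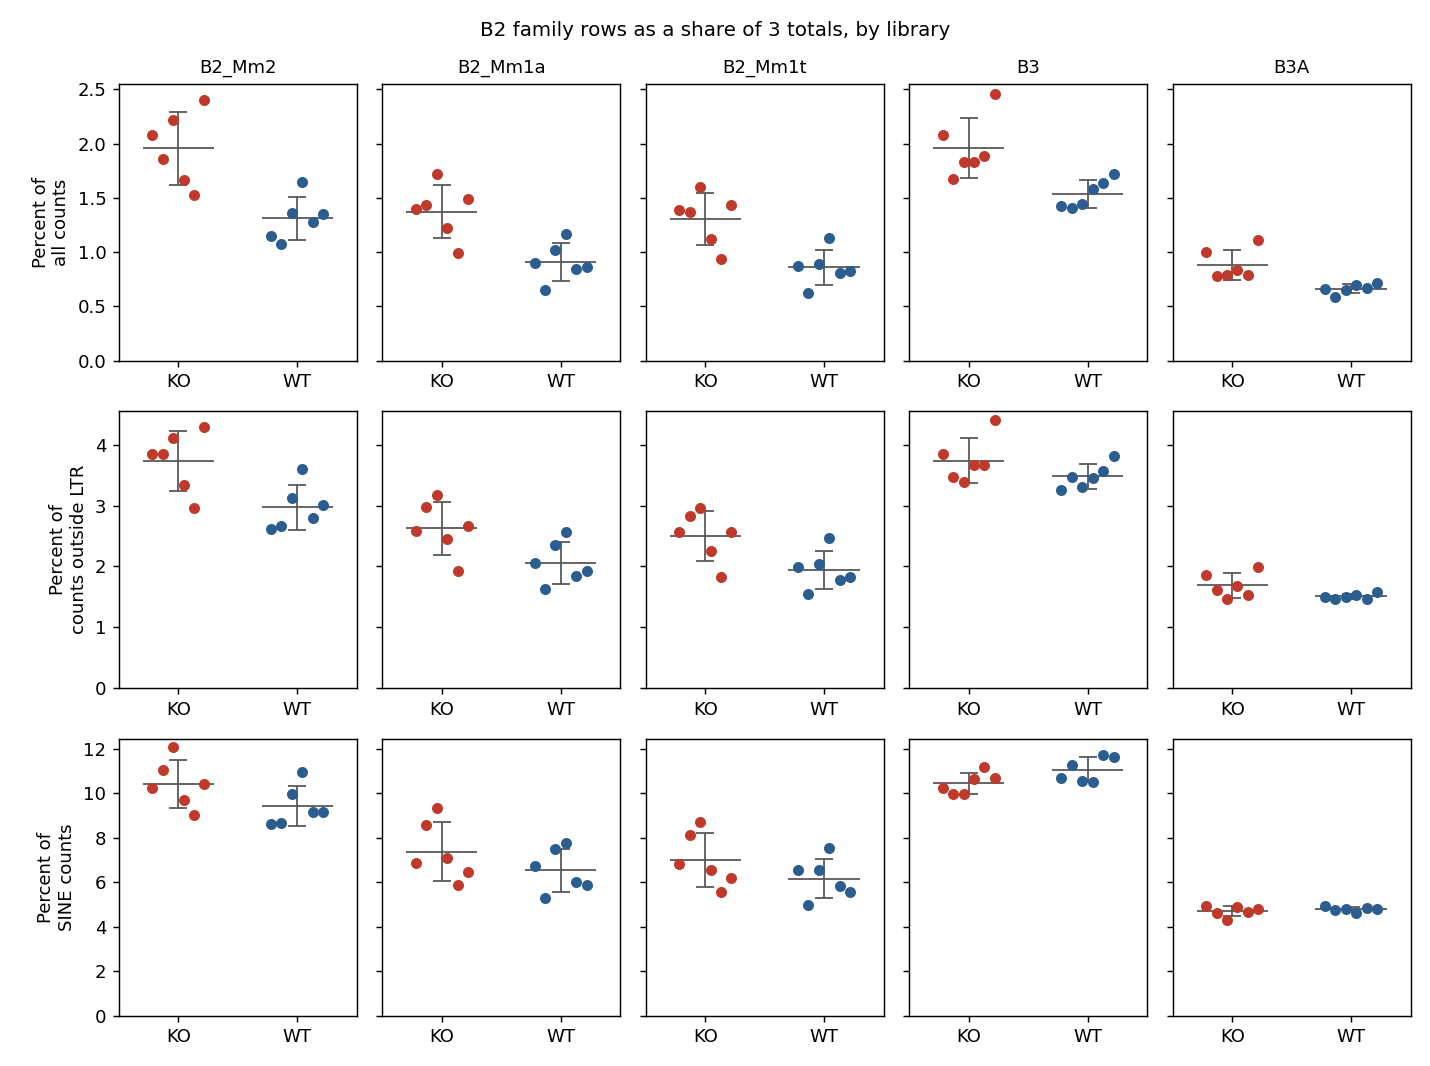
Percent shares (y axes) of the 5 B2 family rows in all counts (top), counts outside LTR (middle) and SINE counts (bottom), with KO libraries left and WT libraries right. Points are libraries in the order of their replicate numbers, and bars show the mean and SD of 6. In percentage points the mean difference of B2_Mm2 is 0.646 at the top, 0.763 in the middle and 1.002 at the bottom, that of B3 is 0.426, 0.260 and -0.613, and B3A in the top line is the only panel in which every KO library lies above every WT library.

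A ratio of counts within a library needs no total and compares subfamilies directly. B3, the B2 row with the most reads, served as the denominator. The log2 ratio of B2_Mm2 to B3 ran from -0.31 to 0.28 in KO libraries (median -0.02) and from -0.38 to 0.06 in WT libraries (median -0.33), so the 2 rows were near 1 to 1 in KO. All 6 KO libraries lay above the WT median, and KO replicates 2 and 3 above every WT library. The difference of the means was 0.23 (n = 6, exact permutation p = 0.0823, adjusted p = 0.338 over 37 SINE rows). For B2_Mm1a the log2 ratio to B3 averaged -0.52 ± 0.31 in KO and -0.77 ± 0.28 in WT, and for B2_Mm1t it averaged -0.59 ± 0.31 in KO and -0.85 ± 0.27 in WT (exact permutation adjusted p = 0.391 and 0.390). Without KO replicate 3 the difference of B2_Mm1a was 0.17, against 0.25 with all libraries. The ratio of B3A to B3 varied little, at -1.15 ± 0.07 in KO and -1.20 ± 0.07 in WT (exact permutation adjusted p = 0.422), and without KO replicate 1 the difference was 0.0356, against 0.0553 with all libraries. None of these ratios passed (0% of 37 SINE rows called, 8.11% higher at an unadjusted p under 0.05), so a difference in response between the younger and older rows was not shown at this number of libraries.

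**Figure D3:**
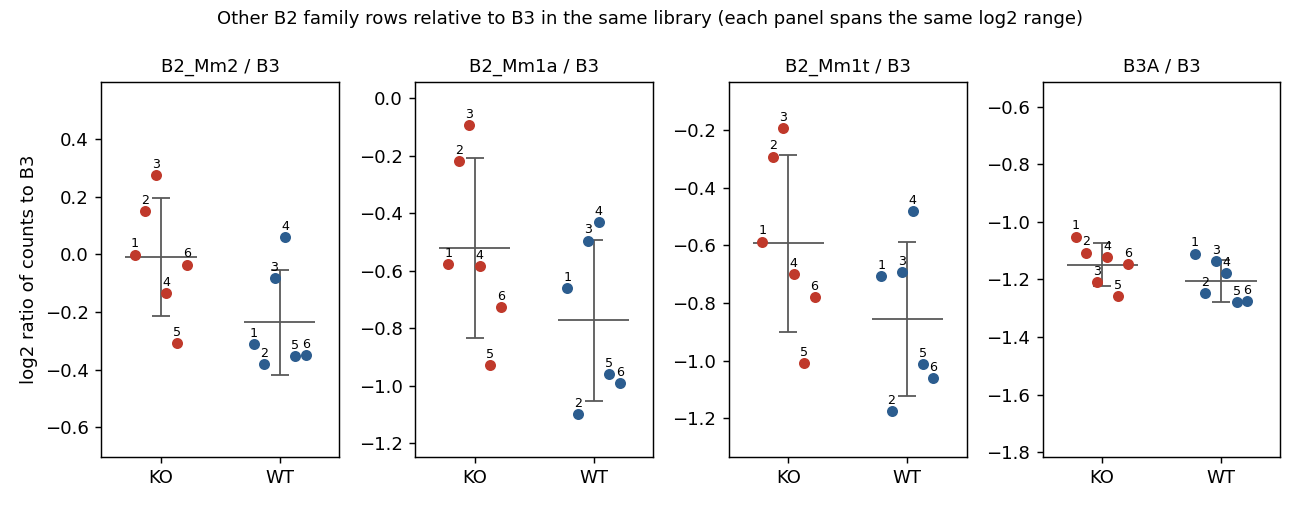
log2 ratio of the counts of B2_Mm2, B2_Mm1a, B2_Mm1t and B3A to those of B3 in the same library (y axes of equal span), with KO libraries left and WT libraries right. Points are numbered by replicate, and bars show the mean and SD of 6 libraries. KO replicates 2 and 3 have the highest ratios of the 3 B2_Mm rows, and the B3A ratio has an SD of 0.07 in each group.

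The B2_Mm rows varied more between libraries of 1 genotype than did their older relatives. The coefficient of variation of normalised CPM was 19.8% in KO and 15.6% in WT for B2_Mm1a, 19.2% in KO and 14.5% in WT for B2_Mm1t, and 14.1% in KO and 12.1% in WT for B2_Mm2. It was 6.83% in KO and 7.77% in WT for B3, and 7.70% in KO and 4.94% in WT for B3A. Among the 38 SINE rows, B2_Mm1a and B2_Mm1t ranked 2 and 3 in KO and 3 and 5 in WT by this measure. The makeup of the family moved accordingly. The 3 B2_Mm rows together made up 56.3% to 67.9% of B2 counts in KO libraries (median 60.6%) and 54.2% to 63.4% in WT libraries (median 57.2%). KO replicate 3 had the highest and WT replicate 2 the lowest value of the 12.

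The shallowest libraries had low B2_Mm values, while the deepest libraries of the genotypes differed. KO replicate 5 (7952526 counts) and WT replicate 2 (10946392 counts) had the lowest B2_Mm1a and B2_Mm1t of their groups, and WT replicate 4, the deepest library with 18902360 counts, had the highest B2_Mm1a, B2_Mm1t and B2_Mm2 of the WT group. KO replicate 5 was also lowest for B2_Mm2, but among WT libraries replicate 1 was (12383 normalised CPM, and 14053 in WT replicate 2). KO replicate 1, the deepest KO library with 16493286 counts, lay below the KO median of all 3 rows, at 11093 normalised CPM for B2_Mm1a, 11009 for B2_Mm1t and 16533 for B2_Mm2. With log2 library size as a covariate, the log2 fold changes were 0.30 for B2_Mm2, 0.37 for B2_Mm1t and 0.36 for B2_Mm1a (edgeR adjusted p = 0.154, 0.107 and 0.152). Without WT replicate 2 and KO replicate 5 they were 0.31, 0.34 and 0.33 (edgeR adjusted p = 0.231, 0.236 and 0.286).

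The rows fell into 2 sets by how they deviated from their group means over the 12 libraries. Pearson's r of log2 normalised CPM, with group means taken off, was 0.982 between B2_Mm1a and B2_Mm1t and 0.845 and 0.848 between these and B2_Mm2. It was 0.719 between B3 and B3A, and -0.235 and -0.247 between B3 and B2_Mm1a or B2_Mm1t. Between B3A and B2_Mm1a or B2_Mm1t it was 0.023 and 0.025. B2_Mm2 was less apart from the older rows, with r of 0.240 to B3 and 0.357 to B3A. The rows of each pair were measured in the same libraries and so share each library's depth and handling. Reads of such alike sequences may be split between names, which makes the single levels of B2_Mm1a and B2_Mm1t uncertain. B2_Mm1a nevertheless had more counts than B2_Mm1t in each of the 12 libraries, with a log2 ratio of 0.01 to 0.12 in KO and 0.05 to 0.20 in WT.

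Outside the family, the repeats that deviated from their group means most like each row were of different kinds. Over the 1440 repeats that averaged 10 normalised CPM or more, those most like B2_Mm2 were terminal repeats of the ERVK family of retroviruses, RLTR13D3 (r = 0.956), RLTR25A (r = 0.894) and MLTR31A_MM (r = 0.884). For B2_Mm1t they were RMER21A of the ERV1 family (r = 0.922) and MLTR25A and MLTR25C of ERVK (r = 0.904 and 0.900). For B2_Mm1a they were RMER21A (r = 0.895), MLTR25C (r = 0.862) and RMER17A2 of ERVK (r = 0.854). For B3 and B3A they were SINEs. B1_Mur4, B1_Mur2 and ID_B1 were most like B3 (r = 0.891, 0.890 and 0.884), and B1_Mm, B1_Mus2 and B1_Mus1 most like B3A (r = 0.941, 0.917 and 0.912). The r values are over 12 libraries with group means taken off, so they do not cover the genotype difference, and are given without a test. Log2 fold changes of the LTR rows named here ran from -0.13 (RLTR25A) to 0.14 (MLTR25A), against 0.27 to 0.31 for the B2_Mm rows.

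The other SINE families gave the frame for the B2 values. The Alu family, which holds the B1 elements, had a median log2 fold change of 0.05 over 16 rows, the B4 family 0.11 over 4, the ID family 0.06 over 4 and the ancient MIR family 0.10 over 5, beside 0.27 over the 5 B2 rows. The B2 median is the value of B2_Mm2, while B3 and B3A stood at 0.03 and 0.09. None of the 33 SINE rows outside B2 passed edgeR's test, with 3 higher and 2 lower at an unadjusted p under 0.05. At this threshold 182 of the 3312 tested repeats (5.5%) were higher and 262 lower. The 3 higher SINE rows outside B2 were the rows B4, B4A and MIR, named after their values were seen. Their log2 fold changes were 0.16, 0.14 and 0.17 (edgeR adjusted p = 0.186, 0.318 and 0.167). For B4 and MIR all 6 KO libraries lay above every WT library by normalised CPM, as in 0.725% of all tested repeats. This held for none of the 5 B2 rows, and so few rows cannot show a contrast at that share. The most counted rows were B1_Mus1 of Alu, which stood at -0.01 on the log2 scale of KO over WT, ID_B1 of B4 at 0.09, ID4 of ID at 0.08 and MIRb of MIR at 0.14 (edgeR adjusted p = 0.986, 0.633, 0.563 and 0.388). MamSINE1, the only row of its family, stood at -0.57 (edgeR adjusted p = 0.0759). MamSINE1 and FAM of Alu, named after its value was seen and at -0.25 (edgeR adjusted p = 0.332), were the 2 lower rows. AmnSINE1, AmnSINE2 and LFSINE_Vert, each alone in its family, stood at -0.04, 0.10 and 0.06 (edgeR adjusted p = 0.931, 0.852 and 0.914).

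**Figure D4:**
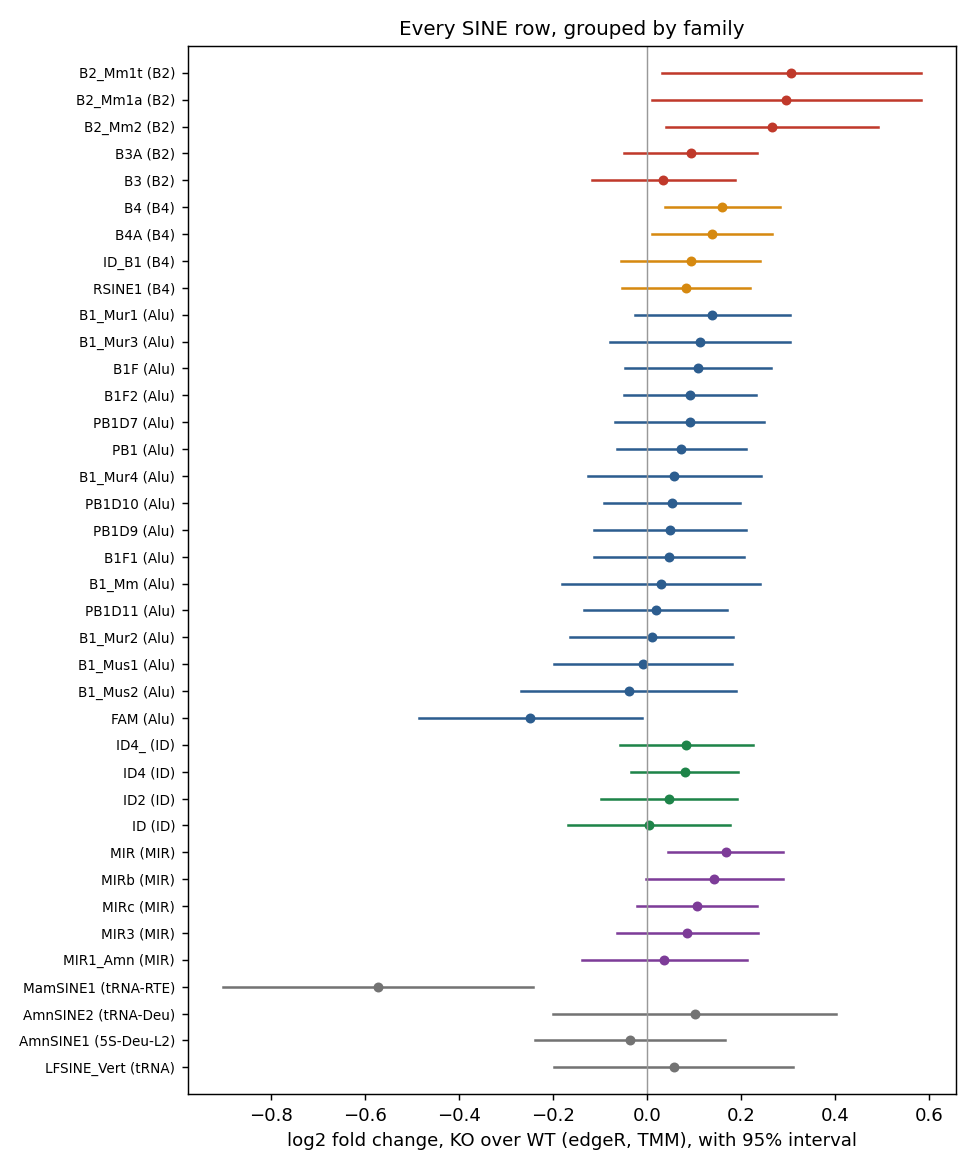
log2 fold change of KO over WT (x axis, edgeR with TMM scaling) for each of the 38 SINE rows, grouped by family. Points are estimates and lines are 95% intervals. The 3 B2_Mm rows have the largest positive estimates, from 0.27 to 0.31, with intervals that begin just above 0, and the intervals of B3 and B3A include 0. Outside B2, the intervals of the rows B4, B4A and MIR also begin above 0, with estimates of 0.16, 0.14 and 0.17. Those of FAM and MamSINE1 end below 0, with estimates of -0.25 and -0.57.

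Other RNAs made by RNA polymerase III were spread to both sides of 0, with more of them below, and none passed the test. The list held transfer RNA names, the signal recognition particle RNA 7SLRNA, 7SK, 5S ribosomal RNA, U6, 4.5SRNA and BC1_Mm, 68 names in all, of which 47 were tested. Taken by its annotation as tRNA, it also held the repeats LFSINE_Vert and CRP1, and tRNA-Leu-TTA_m_ and tRNA-Ser-TCA_m_, whose names mark mitochondrial transfer RNAs, which RNA polymerase III does not make. In edgeR's test, 19 of the 47 had a log2 fold change above 0 and 28 below, with a median of -0.13. The row at this median averaged only 1.87 normalised CPM, with a 95% interval of -1.38 to 1.12. Many of the transfer RNA rows were counted at similarly low levels, so the median gives no firm frame for the B2 rows. At an unadjusted p under 0.05, 1 of the 47 was higher (tRNA-Ala-GCG, at 0.66, named after its value was seen) and 7 were lower, among them tRNA-Leu-TTA_m_. Of all 3312 tested repeats, 182 were higher and 262 lower at this threshold. The rows with the smallest p were tRNA-Met-i, the initiator transfer RNA, at 0.715 ± 0.243 normalised CPM in KO and 2.22 ± 0.808 in WT, 7SK, an RNA that holds back transcription elongation, at 1963 ± 399 in KO and 2955 ± 849 in WT, and 5S at 768 ± 288 in KO and 1331 ± 472 in WT (SD, n = 6, edgeR adjusted p = 0.0517, 0.175 and 0.192). By mean normalised CPM, tRNA-Met-i ranked only 2690 among the 3312 tested repeats. The counts do not separate B2 RNA made by RNA polymerase III from B2 sequence inside longer RNAs, and which of these the reads came from was not tested.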

How the data were processed

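Total RNA of 12 libraries was made with a stranded low-input kit that depletes ribosomal RNA and was sequenced in pairs, per the labels' protocols. The submitters' processing notes name mm10, Trimmomatic 0.32 and edgeR without their roles. No source used here gives the aligner, the repeat annotation or the use of strand. The values the authors deposited, treated as estimated counts per repeat name, were whole in all 12 tables, and rounding left them as they were.

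KO was compared with WT over all repeats with edgeR 4.0.16 in R 4.3.3 (filterByExpr, TMM, quasi-likelihood F test, genotype only), with Benjamini-Hochberg adjustment and a threshold of 0.05. Standard errors came from the F statistic, and 95% intervals from its degrees of freedom. Shares and ratios (0.5 added to each count) were compared by exact two-sided permutation tests over all 924 regroupings for every tested repeat of the table, of the rows outside LTR or of the SINE rows, and adjusted over those (scipy 1.17.1). Family totals, makeup and likeness were not tested. DESeq2 1.42.0, limma 3.58.1, other scalings, filters and totals, a replicate block and removal of libraries were tried as alternatives. The tests were checked on simulated data. Among simulated rows averaging 1000 CPM or more, edgeR called 1 of 20 changed by 0.3 log2 and 13 of 20 changed by 0.6. The B2_Mm estimates of 0.27 to 0.31 lie near the smaller size, where a row that does not pass shows little.

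Named rows were the 5 B2 rows, the most counted row of each other SINE family, the 3 rows with the smallest p of the polymerase III list, and the 3 rows most like each B2 row. The rows B4, B4A, MIR, FAM and tRNA-Ala-GCG were named after their values were seen. The members and lists were chosen with earlier results of these data known. No B2 sequence was used.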

Additional observations from a re-analysis of the deposited data

Results flagged for a closer look

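In 48 groups of 6 library values (the 5 B2 rows by normalised CPM and 3 shares, and 4 log2 ratios to B3, in KO and in WT), Dixon's test at the 95% level marked 1 library. B3 in KO replicate 6 stood at 19851 normalised CPM, and the next KO library at 17520, a gap of 0.703 of the range of the KO group against a critical value of 0.625. Chance marks about 1 in 20 such groups.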

How the results depend on the processing

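With total counts in place of TMM, edgeR's log2 fold changes were 0.60 (B2_Mm1a), 0.61 (B2_Mm1t), 0.58 (B2_Mm2), 0.35 (B3) and 0.41 (B3A), and all 5 passed. The number of repeats edgeR called was 47 (5 of them higher in KO), against 390 with total counts (357 higher), 18 with no filter, 114 with a mean of at least 10 CPM, 72 with library size as a covariate, 23 without WT replicate 2 and KO replicate 5, and 169 with DESeq2 (42 higher). It ran from 19 (without KO or WT replicate 6) to 93 (without KO replicate 2) when 1 library was left out. The log2 fold change of B3 then ran from -0.0049, without KO replicate 6, to 0.0685, without WT replicate 6. The cause of these shifts was not tested. With the 20 most counted rows left out, B2_Mm1a, B2_Mm2 and B3 were themselves removed and have no value.

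For the share of all counts, the differences in percentage points kept their sign. Over the LTR, SINE, LINE and DNA rows as the total, they were 0.607 for B2_Mm1a and 0.586 for B2_Mm1t, and both passed. B2_Mm2, B3 and B3A lost their calls without WT replicate 2 and KO replicate 5 (0.686, 0.414 and 0.225), and when every row with a count above 0 was adjusted over (0.646, 0.426 and 0.220). With 1 library left out, the differences ran from 0.396 to 0.542 for B2_Mm1a, 0.558 to 0.733 for B2_Mm2, 0.326 to 0.483 for B3 and 0.175 to 0.242 for B3A, and the repeats called from 0 to 452, beside 306 with all libraries. No repeat (0) was called with the pair left out or with every row adjusted over. With 5 libraries against 5, the smallest exact permutation p is 0.00794. The share of SINE counts of B3A had its sign turned with SINE counts outside B2 as the total (0.115).

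The replicate numbers are shared by KO and WT, and the labels do not say that they pair libraries. Deviations of same-numbered libraries correlated between -0.131 and 0.198, and 3 of 12 libraries correlated best with their own number. With the replicate block, edgeR called 48 repeats and none of the 5 rows. In the sign-flip test of the replicate block, the differences in the share of all counts were 0.646 for B2_Mm2, 0.426 for B3 and 0.220 for B3A, and 0 repeats passed, where 6 pairs allow no p below 0.03125.

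Of 437 values of 24 B2 results under alternatives, 394 kept their direction and their side of the threshold. Most of these belonged to results that did not pass in either case. Only 3 of the 24 passed in the main tests, the shares of all counts of B2_Mm2, B3 and B3A. Each of these 3 had 17 alternatives, and their calls were lost in 33 values. A call was gained in 8 values, and 2 changed sign.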
